A study of Mus musculus with 6 samples.

Results

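Glucose uptake and its breakdown to lactate are described here through 10 genes: Slc2a1, Hk1, Hk2, Pfkl, Pfkm, Pfkp, Aldoa, Gapdh, Pkm and Ldha. They were taken by symbol from the 50763 genes of the count table, and all 10 were among the 16730 genes that passed the filter on low counts. Messenger RNA was sequenced from mouse embryonic fibroblasts (MEFs), the mesenchymal cells that grow out of a dissociated embryo. The K68R cells carry a CRISPR knock-in in Sod2, which encodes the manganese-dependent superoxide dismutase found in mitochondria, named for the exchange of a lysine for an arginine. The WT cells carry the unedited gene. Both genotypes were of strain C57BL/6J, were taken at E13.5 and were cultured for a short time, and each had 3 libraries. The labels call the libraries of a genotype biological replicates and name no embryo, litter, culture or founder line. The p-values therefore measure only the spread between these libraries, which may be technical. The labels also do not say whether the K68R embryos were homozygous.

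Glucose crosses the plasma membrane of most fibroblasts through GLUT1, the product of Slc2a1. Hexokinase traps it as glucose 6-phosphate, phosphofructokinase commits it to glycolysis, and aldolase splits the product into trioses. Glyceraldehyde-3-phosphate dehydrogenase and pyruvate kinase then carry the steps that lead to NADH, ATP and pyruvate, and lactate dehydrogenase turns pyruvate into lactate while restoring NAD+. Hexokinase, phosphofructokinase and lactate dehydrogenase each exist as several paralogues with different tissue distribution and regulation. Cultured and proliferating fibroblasts are known for turning much of their glucose into lactate even with oxygen present.

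Depth, as deposited read pairs in genes, was 26200088 to 31738219 in the K68R libraries and 30856781 to 40691447 in the WT libraries. Levels are given in CPM, counts scaled by each library's TMM-normalized size, and 3 counts corresponded to 0.0737 to 0.115 CPM. The biological coefficient of variation within a genotype was 2.19%, and 13613 of the 16730 genes tested were called different at a Benjamini-Hochberg adjusted p under 0.05 (edgeR), which is 81.4% of them. Sod2 itself was at 48.9, 45.6 and 47.2 CPM in K68R, against 71.8, 69.0 and 69.2 CPM in WT. Its log2 fold change, K68R over WT, was -0.57 with a standard error of 0.0363 (edgeR, adjusted p = 2.96e-23), and was -0.24 and -0.89 with offsets from length and GC content and from length alone. The counts do not distinguish the edited codon. The fibroblast intermediate filament gene Vim, named after its values were seen, had 4983 ± 29.6 CPM in K68R, against 4905 ± 41.8 CPM in WT (SD, n = 3 each), so this mesenchymal marker was present in both. Most of the fibroblast markers listed did differ. Of the 10, 4 were called higher and 5 lower, beside 40.8% and 40.5% of all genes tested.

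In the edgeR test, 5 of the 10 genes were higher in K68R, namely Hk1, Hk2, Pfkl, Pfkm and Pkm, where the share of all genes called higher was 40.8%. Gapdh and Ldha were lower in K68R, 2 of 10, where 40.5% of all genes were called lower. Slc2a1, Pfkp and Aldoa did not pass the test. In 7 of the 10 the values of the genotypes did not overlap, as they did not in 82.3% of all genes tested. The members' median log2 fold change was 0.09, against -0.01 over all genes tested. Against a bound of 1.5-fold in place of no change, Hk1 and Pfkl were called higher and Ldha lower, where 41.0% of all genes were called, 26.1% higher and 14.9% lower. Together the 10 genes took 0.486% ± 0.00516 of all counts in K68R libraries and 0.512% ± 0.00484 in WT libraries (SD, n = 3 each).

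**Figure D1:**
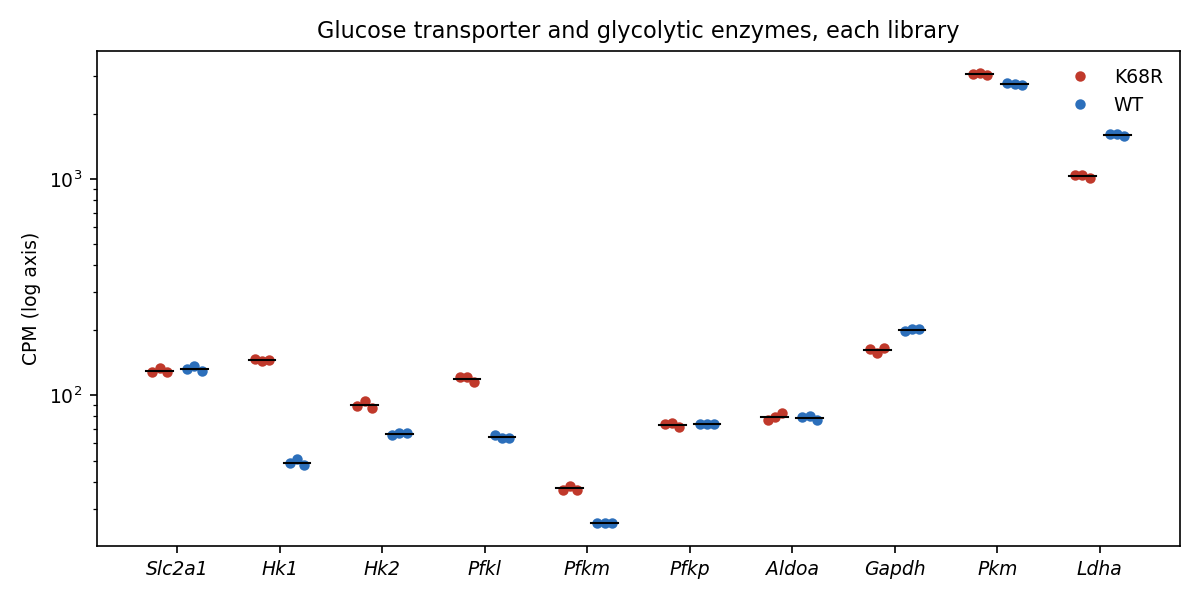
Level of each of the 10 genes in CPM on a log axis, with 3 K68R libraries (red) and 3 WT libraries (blue) as points and the mean as a line. Hk1 lies near 146 CPM in K68R and near 48.9 CPM in WT, Ldha near 1036 CPM in K68R and near 1603 CPM in WT, and the points of Slc2a1, Pfkp and Aldoa overlap.

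For most of these genes, the call or its direction depended on whether exon length and GC content were taken into account. Among the genes tested with 55% GC or more, the median log2 fold change was -0.53 in the shortest length bin (98 genes) and 2.99 in the longest (69 genes). Below 50% GC it was -0.64 in the shortest bin (142 genes) and 0.25 in the longest (367 genes). Offsets from a smooth function of length and GC content, fitted to each library, accounted for 39.4% of the variance of the fold changes, and offsets built on the length and GC content of each gene's principal transcript accounted for 47.7%. Fold changes with offsets are relative to genes of like length and GC content. Neither the source of this dependence nor its part in the differences between genotypes was tested. The WT library names carry an r after the replicate number that the K68R names lack, and the labels do not explain it. Any difference in culture or library preparation that followed genotype cannot be told apart from genotype in this design.

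With offsets from the merged exons, 1 of the 10 genes was called higher (Gapdh) and 7 were called lower (Slc2a1, Hk2, Pfkl, Pfkp, Aldoa, Pkm and Ldha), where 75.7% of all genes were called, 33.2% higher and 42.5% lower. With offsets from the principal transcript, 1 was called higher (Hk1) and 7 lower (Slc2a1, Hk2, Pfkl, Pfkp, Gapdh, Pkm and Ldha), where 79.2% of all genes were called, 35.9% higher and 43.3% lower. The median of the 10 was then -0.27 or -0.26, against -0.07 or -0.05 over all genes. Ldha was the only one of the 10 called in 1 direction without offsets and with both kinds, and 28.6% of all genes were called lower in all of these 3 fits. None was called higher in all 3, where 24.3% of all genes were.

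**Figure D2:**
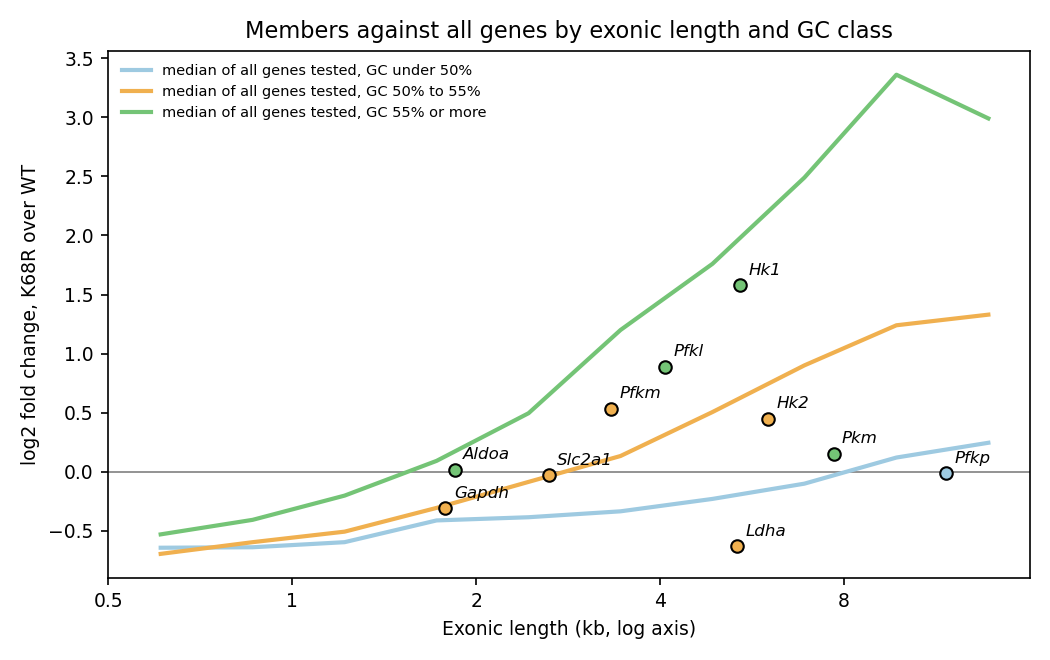
The log2 fold change (K68R over WT) for the 10 genes (circles) against exonic length in kb on a log axis, coloured by GC class, with lines for the median of all genes tested in each class. Hk1 (5399 exonic bases, 56.4% GC) lies at 1.58, below the line of its class, and Ldha (5342 bases, 51.5% GC) at -0.63 lies farther below the line of its own.

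Slc2a1 encodes the basal glucose transporter GLUT1 (chromosome 4, 118966001 to 118994527, plus strand, build mm39). It was at 129, 134 and 128 CPM in the K68R libraries and at 133, 136 and 130 CPM in the WT libraries. The genotypes overlapped, and the log2 fold change of -0.03 (standard error 0.0265) did not pass the test (edgeR, adjusted p = 0.286). It was -0.21 with offsets from the merged exons and -0.57 with offsets from the principal transcript, and both were called lower. It was also called lower, at -0.06, when WT replicate 3 was left out, and at -0.15 with upper quartile normalization. Lower calls were made too with length offsets (-0.12), library totals only (-0.073) and no filter on low counts (-0.069). Of 14 other glucose and polyol transporters listed, 10 were tested, of which 4 were higher and 1 lower, beside 40.8% of all genes called higher and 40.5% called lower, with a median log2 fold change of 0.14. Slc2a8 and Slc2a6, intracellular transporters of the same family, were higher at 6.40 ± 0.269 and 5.20 ± 0.148 CPM in K68R, against 3.28 ± 0.213 and 2.80 ± 0.223 CPM in WT (SD, n = 3 each). The log2 fold change of Slc2a8 was 0.96 and turned to -0.44 and -0.36 with the 2 kinds of offsets, while that of Slc2a6 was 0.90, 0.41 and 0.15. Slc50a1, a sugar transporter of the Golgi, was lower in all 3 fits, at 18.9 ± 0.988 CPM in K68R, against 30.7 ± 1.03 CPM in WT (SD, n = 3 each).

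Both hexokinases were higher in K68R without offsets, and Hk1 more so than Hk2. Hk1, the broadly expressed hexokinase that binds the outer mitochondrial membrane (chromosome 10, 62104634 to 62215699, minus strand), was at 147, 145 and 146 CPM in K68R, against 48.5, 50.8 and 47.6 CPM in WT. The lowest K68R library thus stood well above the highest WT library, a 2.98-fold difference with a log2 fold change of 1.58 and a standard error of 0.0308 (edgeR, adjusted p = 6.01e-53). That value was 0.48 with principal transcript offsets and -0.02 with merged exon offsets, where it was not called. Hk2, the inducible hexokinase of muscle, fat and many growing cells (chromosome 6, 82702004 to 82751437, minus strand), was at 89.9, 94.7 and 87.4 CPM in K68R, against 65.4, 66.9 and 67.4 CPM in WT. Its values did not overlap either, with a log2 fold change of 0.45 and a standard error of 0.0327 (edgeR, adjusted p = 2.53e-20). Hk2 was lower with both kinds of offsets, at -0.34 and -0.54. Of Hk1, 3.32% of exonic bases overlap the opposite-strand gene Hk1os, and Hk2 shares none.

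The balance between the 2 hexokinases differed in 1 direction in every setting tried. Per kilobase of merged exons, Hk2 made up 35.5%, 37.1% and 35% of the Hk1 and Hk2 signal in K68R libraries and 54.8%, 54.2% and 56.0% in WT libraries. Hk2 was thus the smaller part in all 3 K68R libraries and the larger part in all 3 WT libraries on this scale. Per kilobase of the principal transcript it was the smaller part in both, at 29.9%, 31.4% and 29.5% in K68R and 48.5%, 47.9% and 49.7% in WT. The means were 35.8% ± 1.09 in K68R and 55% ± 0.915 in WT (SD, n = 3 each), a difference of -19.2 percentage points, with p = 0.1 in a two-sided exact permutation test. This is the smallest p that 3 against 3 libraries allow, and 3 such shares were tested. With the length and GC surface of the merged exons divided out the means were 42.5% in K68R and 48.0% in WT, a difference of -5.51 points, and Hk2 was then below Hk1 in both genotypes. With the surface of the principal transcript divided out of the same per-kilobase values they were 36.7% in K68R and 54.1% in WT. Hk3, a hexokinase best known from blood cells, was low at 6.16 ± 0.169 CPM in K68R, against 3.32 ± 0.192 CPM in WT (SD, n = 3 each), with a log2 fold change of 0.89 that was -0.14 and -0.15 with offsets.

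Phosphofructokinase is a tetramer of liver (Pfkl), muscle (Pfkm) and platelet (Pfkp) type subunits, and of these Pfkl and Pfkm passed the test without offsets. Pfkl (chromosome 10, 77822781 to 77845641, minus strand) was at 121, 121 and 115 CPM in K68R, against 65.6, 63.9 and 63.6 CPM in WT. It was 1.85-fold higher in K68R with no overlap, a log2 fold change of 0.89 with a standard error of 0.0307 (edgeR, adjusted p = 5.86e-38), and was lower with both kinds of offsets, at -0.44 and -0.56. Pfkm (chromosome 15, 97990470 to 98030328, plus strand) was at 36.7, 38.3 and 36.6 CPM in K68R, against 25.8, 25.7 and 25.7 CPM in WT. Its libraries also separated by genotype, with a log2 fold change of 0.53 and a standard error of 0.0467 (edgeR, adjusted p = 9.75e-17). With offsets Pfkm was at -0.06 and 0.04 and was not called. Pfkp (chromosome 13, 6629910 to 6699096, minus strand) was at 74.1, 74.3 and 71.5 CPM in K68R, against 73.5, 73.9 and 74 CPM in WT. These values overlapped, and the log2 fold change of -0.01 did not pass the test (edgeR, adjusted p = 0.778), while with offsets Pfkp was called lower at -0.63 and -0.15. Its merged exons span 11760 bases, 2.84 times its principal transcript of 4145 bases.

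Within the phosphofructokinase signal per kilobase of merged exons, Pfkl made up 62.7% ± 0.425 in K68R and 53.0% ± 0.414 in WT. Pfkp made up 13.3% ± 0.0705 in K68R and 21% ± 0.264 in WT (SD, n = 3 each). Per kilobase of the principal transcript Pfkl made up 51.1% in K68R and 39.2% in WT, and Pfkp 28.2% in K68R and 40.5% in WT, so that Pfkp exceeded Pfkl in WT on that scale. Pfkm, the share chosen for testing, was 23.5%, 24.2% and 24.3% in K68R libraries and 25.8%, 26.0% and 26.1% in WT libraries. The K68R libraries were all lower, with a mean difference of -2.0 points (two-sided exact permutation p = 0.1, the smallest possible). This direction did not hold under other scalings. The difference was 0.493 points on raw counts and 0.337 points per kilobase of the principal transcript, where the genotypes overlapped. It was 5.51 and 6.65 points with the 2 length and GC surfaces divided out.

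**Figure D3:**
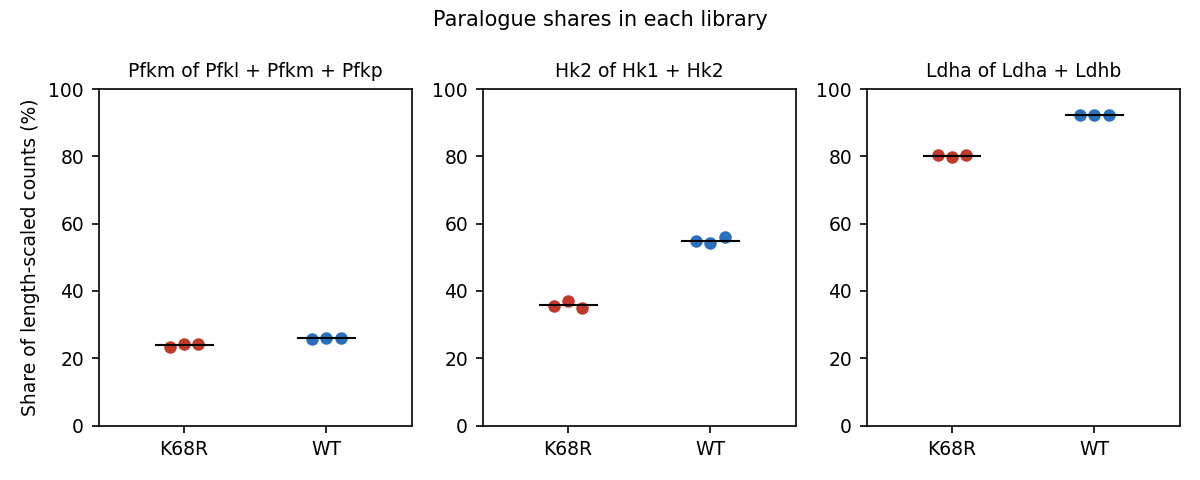
Share of count per kilobase of merged exons held by Pfkm, Hk2 and Ldha within their paralogue families, in percent, with 3 K68R libraries (red) and 3 WT libraries (blue) as points and the mean as a line. Hk2 averages 35.8% in K68R and 55% in WT and Ldha 80.1% in K68R and 92.3% in WT, while the Pfkm difference of -2.0 points turns positive under the other scalings named in the text.

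Aldoa, the aldolase of muscle and most other tissues (chromosome 7, 126394406 to 126399537, minus strand), was at 76.9, 79.3 and 83.4 CPM in K68R, against 79.1, 80.7 and 77.1 CPM in WT. The genotypes overlapped, with a log2 fold change of 0.02 (edgeR, adjusted p = 0.611). Its count is uncertain, because 74.4% of its exonic bases are shared with the same-strand gene Gm57854 and a read pair that falls on both genes was assigned to neither. Gm57854 itself received 10, 11 and 11 counts in K68R and 21, 22 and 18 counts in WT. With offsets Aldoa was at -0.11 (called lower) and -0.03 (not called), and with upper quartile normalization at -0.10 (called lower). With length offsets alone it was called higher, at 0.13.

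Gapdh, which oxidizes glyceraldehyde 3-phosphate and is often used as a reference gene (chromosome 6, 125138812 to 125143450, minus strand), was at 165, 157 and 166 CPM in K68R, against 199, 202 and 203 CPM in WT. All K68R libraries were below all WT libraries, a 1.24-fold difference with a log2 fold change of -0.31 and a standard error of 0.0238 (edgeR, adjusted p = 4.22e-19). Merged exon offsets turned it to 0.08, and principal transcript offsets left it at -0.20. This count is uncertain too, because 88.0% of the principal transcript has near-identical stretches (95% identity or more over at least 100 bases) in 79 other annotated genes, and reads that align to several places were not counted. The 73 of these genes in the count table received 2104, 2119 and 2251 counts in K68R and 3608, 2900 and 3184 counts in WT, beside 4247, 4902 and 5118 counts of Gapdh in K68R and 8186, 6314 and 6794 in WT.

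Pkm, the pyruvate kinase of muscle and proliferating cells (chromosome 9, 59563859 to 59586655, plus strand), had the highest level of the 10 in every library, also per kilobase. It was at 3069, 3090 and 3030 CPM in K68R, against 2773, 2769 and 2720 CPM in WT. The libraries separated by genotype, but the difference was small, 1.11-fold, with a log2 fold change of 0.15 and a standard error of 0.0156 (edgeR, adjusted p = 4.16e-14). It was lower with both kinds of offsets, at -2.35 on merged exons and -0.60 on the principal transcript. The merged exons span 7687 bases, 3.16 times the principal transcript of 2432 bases, so the length behind the merged exon offset is that of a much longer gene. With offsets from that merged exon length alone, without GC content, the value was -0.60. The table counts whole genes and does not separate the M1 and M2 splice forms of Pkm. Near-identical copies in 2 other genes cover 65.5% of its principal transcript.

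Ldha, the muscle-type subunit of lactate dehydrogenase and a well known target of the hypoxia-inducible factors, was lower in K68R (chromosome 7, 46491698 to 46505051, plus strand). It was at 1048, 1048 and 1011 CPM in the K68R libraries and at 1618, 1614 and 1577 CPM in the WT libraries. The highest K68R library was far below the lowest WT library, a 1.55-fold difference with a log2 fold change of -0.63 and a standard error of 0.0173 (edgeR, adjusted p = 6.55e-44). In the 18 alternative fits the log2 fold change lay between -1.21 and -0.33 and was called lower in each, the 1.5-fold bound included. Its merged exons span 5342 bases, 3.02 times the principal transcript of 1766 bases, and 56.6% of that transcript has near-identical copies in 5 other genes, which received at most 89 counts in a library.

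Ldhb, the heart-type subunit, which is not among the 10 but completes the enzyme, went the other way (chromosome 6, 142435975 to 142453683, minus strand). It was at 62.6, 65.1 and 60.5 CPM in K68R, against 32.8, 32.8 and 32.6 CPM in WT. It was thus 1.92-fold higher in K68R without overlap, a log2 fold change of 0.94 with a standard error of 0.0395 (edgeR, adjusted p = 4.88e-33), and its value lay between 0.83 and 1.47 in the 18 alternative fits. A near-identical copy in 1 other gene covers 76.8% of its transcript. Per kilobase of merged exons, Ldha made up 80.3%, 79.7% and 80.3% of the lactate dehydrogenase signal in K68R and 92.3%, 92.3% and 92.2% in WT. Ldha was the larger part in every library, and its share was lower in all K68R libraries, 80.1% ± 0.351 in K68R and 92.3% ± 0.0726 in WT (SD, n = 3 each), a difference of -12.2 points (two-sided exact permutation p = 0.1, the smallest possible). Near-identical copies cover 56.6% of the principal transcript of Ldha and 76.8% of that of Ldhb. Reads that align to several places were not counted, so the levels of these shares are uncertain. The size of the difference also depended on the length used. It was -3.71 points on raw counts, -4.89 points per kilobase of the principal transcript, and -21.4 and -13.1 points with the surfaces of the merged exons and the principal transcript divided out.

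Promoters of Ldha and Ldhb are shown because these paralogues moved in opposite directions in every fit, and that of Hk1 because it had the largest fold change of the 10 without offsets. Each spans 250 bases before and 50 bases after a start site, from RefSeq on build GRCm38.p6, and reads 5′ to 3′ on the gene's strand. Capitals mark ACGTG and GCGTG, the core letters of the hypoxia response element, and their reverse complements CACGT and CACGC, since both strands were searched. CACGTG counts as ACGTG once on each strand.
Ldha, chr7:46845554-46845853, plus strand: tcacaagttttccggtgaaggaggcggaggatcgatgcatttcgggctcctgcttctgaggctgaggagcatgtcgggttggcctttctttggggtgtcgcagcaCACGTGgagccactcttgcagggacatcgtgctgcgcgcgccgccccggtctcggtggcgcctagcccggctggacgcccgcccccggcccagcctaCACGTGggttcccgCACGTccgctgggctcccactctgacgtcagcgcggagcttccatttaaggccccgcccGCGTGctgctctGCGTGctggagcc
Ldhb, chr6:142507908-142508207, minus strand: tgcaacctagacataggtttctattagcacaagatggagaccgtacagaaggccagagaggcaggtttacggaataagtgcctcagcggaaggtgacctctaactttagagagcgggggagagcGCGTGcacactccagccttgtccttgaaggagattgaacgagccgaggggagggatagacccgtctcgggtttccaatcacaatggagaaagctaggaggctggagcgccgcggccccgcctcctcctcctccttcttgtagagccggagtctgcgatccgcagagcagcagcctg
Hk1, chr10:62340372-62340671, minus strand: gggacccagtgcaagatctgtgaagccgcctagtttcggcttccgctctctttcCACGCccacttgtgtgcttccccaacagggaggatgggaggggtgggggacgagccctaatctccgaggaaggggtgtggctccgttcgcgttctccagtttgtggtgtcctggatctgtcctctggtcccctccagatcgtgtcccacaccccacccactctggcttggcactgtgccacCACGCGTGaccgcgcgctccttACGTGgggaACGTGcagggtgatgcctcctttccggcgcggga
The Ldha promoter held 7 matches, 5 of ACGTG and 2 of GCGTG, with CACGTG present, the Hk1 promoter held 5 and the Ldhb promoter held 1. RefSeq lists 1 more promoter each for Ldha, with 2 matches and no CACGTG, and for Hk1, with 0 matches, and those printed are the ones with more. RefSeq lists 18 promoters for the 10 genes, of which 14 held ACGTG or GCGTG, and each gene had at least 1 such promoter. Overlapping promoters of Aldoa, and of Pfkm, share a match, so the same letters were counted more than once. The shares below are per promoter, and none was computed per gene. Of all 32851 promoters listed, 43.8% held either motif, and 56.9% of the 19938 with at least 50% GC, the class of 17 of the 18, of which 13 held one. CACGTG was in 2 of the 18 and in 7.15% of all. These matches describe letters and not bound sites.

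The order of the 10 genes by level per kilobase of merged exons was Pkm, Ldha, Gapdh, Slc2a1, Aldoa, Pfkl, Hk1, Hk2, Pfkm and Pfkp in K68R. Mean levels were 398, 194, 91.2, 49.5, 43.3, 29.3, 27.0, 15.1, 11.2 and 6.23 CPM per kilobase in that order. In WT the order was the same except that Hk2, at 11.1 CPM per kilobase, stood above Hk1, at 9.06. Ldha was at 194 CPM per kilobase in K68R and 300.1 in WT. In neither genotype did the 3 values of a gene overlap those of its neighbour in this order. Levels of Gapdh, Pkm and Ldha lack reads that align to several places. Near-identical copies cover 88.0%, 65.5% and 56.6% of their principal transcripts, and none was found for Slc2a1, the hexokinases or the phosphofructokinases. Aldoa lacks read pairs that also fall on Gm57854. The places of these genes, by either length, are therefore uncertain. Per kilobase of the principal transcript, Hk1 stood above Hk2 in WT too, at 12.7 against 12.1, Aldoa stood above Slc2a1 in both genotypes, and Pfkp, at 17.7 in K68R and 17.8 in WT, stood above Hk2 and Pfkm and, in WT, also above Pfkl and Hk1.

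The 5 remaining main steps between glucose 6-phosphate and pyruvate were lower or not called without offsets. Gpi1, which isomerizes glucose 6-phosphate, averaged 461.8 ± 5.99 CPM in K68R, against 464.7 ± 8.27 CPM in WT and did not pass the test (SD, n = 3 each, edgeR, adjusted p = 0.69). With merged exon and principal transcript offsets Gpi1 was called lower, at -0.045 and -0.26. Lower calls were also made with length offsets (-0.15), upper quartile normalization (-0.12) and library totals only (-0.051). Tpi1 (triose phosphate isomerase), Pgk1 (phosphoglycerate kinase) and Pgam1 (phosphoglycerate mutase) had log2 fold changes of -0.25, -0.36 and -0.08, all called lower. With merged exon offsets Tpi1 and Pgam1 turned to 0.19 and 0.28. With principal transcript offsets Tpi1, Pgk1 and Pgam1 turned to 0.07, 0.02 and 0.19, and Pgk1 was then not called. Eno1, the enolase of most tissues, was lower in all 3 fits, at 1988 ± 3.46 CPM in K68R, against 2360 ± 17.1 CPM in WT (SD, n = 3 each), with log2 fold changes of -0.25, -0.54 and -0.64. Near-identical copies in other genes cover between 19.3% (Tpi1) and 85.6% (Eno1) of the principal transcripts of these 5. Together with Ldhb they took 0.385% ± 0.00296 of the counts in K68R and 0.461% ± 0.00308 in WT (SD, n = 3 each).

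**Figure D4:**
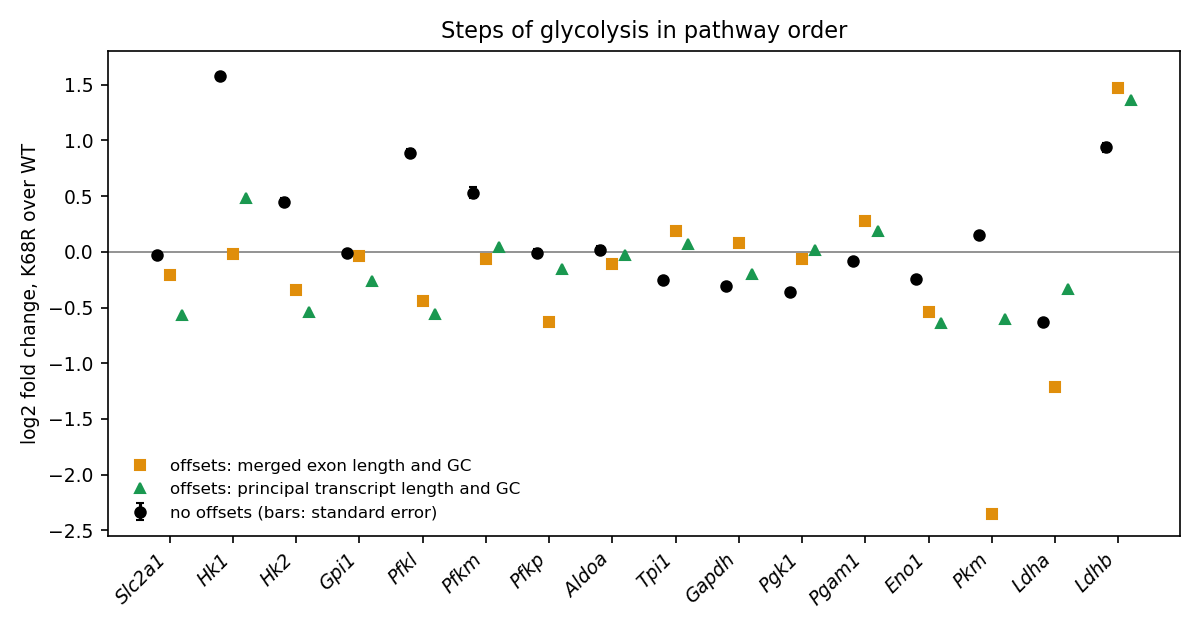
The log2 fold change (K68R over WT) for 16 genes in pathway order, without offsets (black, with standard error), with offsets from merged exon length and GC content (orange) and with offsets from the principal transcript (green). Ldha and Eno1 lie below 0 and Ldhb above 0 in all 3, whereas Hk2, Pfkl and Pkm change sign.

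Of the 22 other glycolytic enzymes listed, 16 were tested, 8 were higher and 6 lower, with a median log2 fold change of 0.14. Like the counts that follow, these stand beside 40.8% of all genes called higher and 40.5% called lower. Calls in 1 direction in all 3 fits were made for 5 higher genes (Aldoc, Gapdhs, Pgam2, Eno2 and Ldhb) and 3 lower ones (Eno1, Bpgm and Adpgk), where 24.3% of all genes were called higher and 28.6% lower in all 3, the shares for each such account that follows. Pgk2 and Ldhc were at 0 in every library. Eno2, the neuronal enolase, was at 41.3 ± 1.43 CPM in K68R, against 22.4 ± 0.808 CPM in WT (SD, n = 3 each), a log2 fold change of 0.88 that was 0.26 and 0.42 with offsets. Pgam2, the muscle mutase, named after its values were seen, was at 2.63 ± 0.444 CPM in K68R, against 0.771 ± 0.197 CPM in WT (SD, n = 3 each). Skeletal muscle markers were higher in the same libraries, and their part in this difference was not tested.

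Regulators of glycolytic flux were all called, 5 higher and 8 lower of 13 tested (16 listed), with a median log2 fold change of -0.38. Higher in all 3 fits were Pfkfb2, Pfkfb3 and Myc, and lower were Pfkfb1, Pfkfb4, Txnip, Arrdc4, Ptbp1, Hnrnpa1 and Hnrnpa2b1. Pfkfb3 makes fructose 2,6-bisphosphate, the activator of phosphofructokinase, and Myc is a transcription factor for glycolytic genes. These were named after their values were seen. Pfkfb3 averaged 53.7 ± 2.74 CPM in K68R, against 29.4 ± 0.0621 CPM in WT, and Myc 80.1 ± 1.22 CPM in K68R, against 46.3 ± 0.434 CPM in WT (SD, n = 3 each). Txnip, an arrestin that restrains glucose uptake by GLUT1, was 1.95-fold lower, at 61.7 ± 3.42 CPM in K68R, against 121 ± 1.22 CPM in WT (SD, n = 3 each). The opposite-strand gene Gm15441 overlaps 21.6% of its exonic bases. Hnrnpa1, one of 3 listed splicing factors known to favour the M2 form of Pkm, was 2.0-fold lower, at 539.3 ± 13.4 CPM in K68R, against 1078 ± 14 CPM in WT (SD, n = 3 each). Mlxip, the glucose-sensing factor MondoA, was at 37.7 ± 0.468 CPM in K68R, against 13.8 ± 0.0769 CPM in WT (SD, n = 3 each). Its log2 fold change of 1.45 was 0.10 with merged exon offsets and turned to -0.40 with principal transcript offsets.

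Genes that handle pyruvate and lactate numbered 16, all tested, with 3 higher, 8 lower and a median log2 fold change of -0.11. Slc16a1, the lactate and pyruvate carrier MCT1, was 2.3-fold lower, at 33.8 ± 2.01 CPM in K68R, against 78.0 ± 2.23 CPM in WT (SD, n = 3 each). Emb, the chaperone embigin that carries such transporters to the cell surface, was 3.5-fold lower, at 19.8 ± 0.948 CPM in K68R, against 69.5 ± 2.14 CPM in WT (SD, n = 3 each). Both held with offsets, Slc16a1 at -0.94 and -0.98 and Emb at -1.42 and -1.43 on the log2 scale, as did the lower calls of Slc16a3, Mpc1, Pdp1 and Pdp2. The opposite-strand gene Gm17509 overlaps 14.7% of the exonic bases of Emb. Pdk4, a kinase that inactivates pyruvate dehydrogenase, was the 1 gene of the list higher in all 3 fits and is named after its values were seen, at 12.4 ± 0.720 CPM in K68R, against 5.49 ± 0.685 CPM in WT (SD, n = 3 each). Pcx, pyruvate carboxylase, had a log2 fold change of 1.56 that was -0.01 and -0.36 with offsets.

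In the pentose phosphate pathway, which branches off at glucose 6-phosphate and makes NADPH and ribose, 9 of 11 genes were tested, and 2 were higher and 7 lower, with a median log2 fold change of -0.43. Lower in all 3 fits were G6pdx, Pgls, Pgd, Rpia and Prps1, and higher was Prps2. G6pdx, the first and rate-limiting enzyme, was at 89.9 ± 1.62 CPM in K68R, against 133 ± 1.11 CPM in WT (SD, n = 3 each), with log2 fold changes of -0.57, -0.42 and -0.61. Rpia, ribose 5-phosphate isomerase, was 2.21-fold lower, at 9.22 ± 1.56 CPM in K68R, against 20.6 ± 0.380 CPM in WT (SD, n = 3 each). Prps1, a phosphoribosyl pyrophosphate synthetase, was 1.88-fold lower. The median of the list was -0.20 and -0.41 with the 2 kinds of offsets, that of the pyruvate and lactate genes -0.24 and -0.20, and that of the flux regulators -0.38 and -0.40.

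Among 16 genes of the glycogen, hexosamine and glycerol branches, all tested, there were 5 higher and 6 lower, and the median log2 fold change was -0.03. Gpd1, the cytosolic glycerol 3-phosphate dehydrogenase best known from fat, liver and muscle, was 15.3-fold lower, at 0.563 ± 0.238 CPM in K68R, against 8.58 ± 0.689 CPM in WT (SD, n = 3 each). Adipocyte markers, 73.8 to 78.2 CPM in sum in K68R and 243.6 to 257 CPM in WT, were lower in the same libraries, and their part in this difference was not tested. Gfpt2, which opens the hexosamine pathway, was 1.88-fold lower and was also lower with both kinds of offsets. Gys1, muscle glycogen synthase, had a log2 fold change of 0.75 that turned to -0.11 and -0.30 with offsets.

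**Figure D5:**
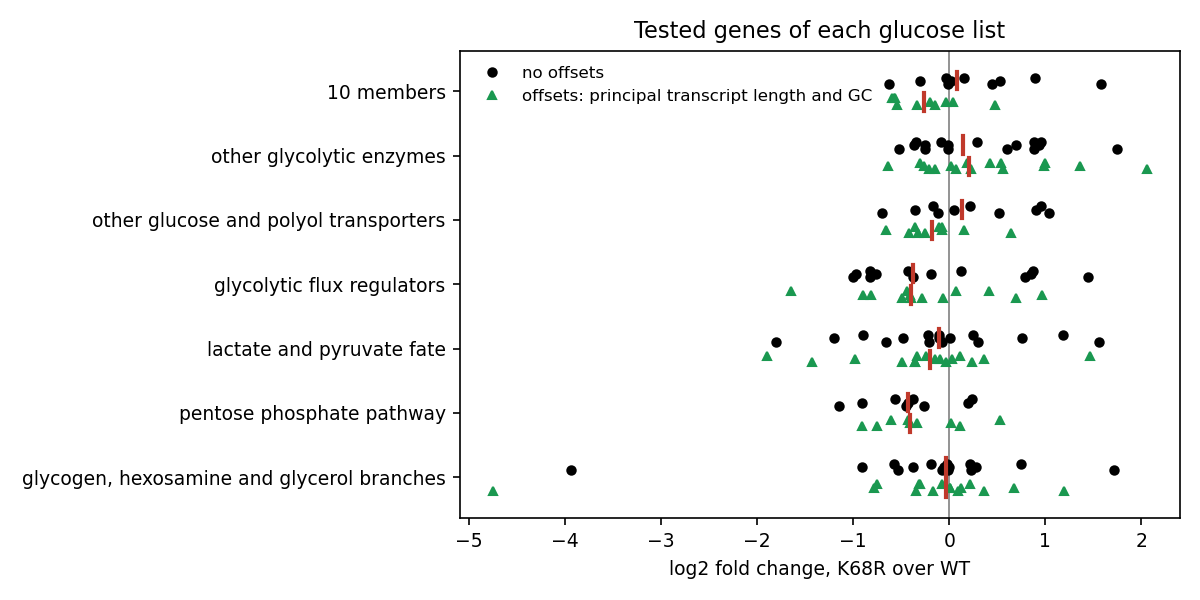
The log2 fold change (K68R over WT) for each tested gene in the 10 members and 6 further glucose lists, without offsets (black) and with principal transcript offsets (green), with red lines for the medians. The members' median is 0.09 without offsets and -0.26 with them, and the median of the flux regulators is -0.38 and -0.40.

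Hypoxia-inducible factors switch on most of the 10 genes when oxygen is short, so 20 genes of the factors, their regulators and their targets outside glycolysis were set beside them. Of these 9 were higher and 8 lower, with a median log2 fold change of 0.02. Egln1 and Egln3, prolyl hydroxylases that mark the factors for destruction, were 2.57-fold and 2.04-fold higher in K68R. The log2 fold change of Egln1 was 1.36 without offsets and 0.44 and 0.26 with them, and that of Egln3 was 1.03, 0.99 and 1.07. Egln2 had a log2 fold change of 0.80 that turned to -0.82 and -0.70. Car9, a carbonic anhydrase widely used as a hypoxia marker and named after its values were seen, was 9.87-fold higher, at 4.86 ± 0.322 CPM in K68R, against 0.479 ± 0.166 CPM in WT (SD, n = 3 each). In all 3 fits Egln1, Egln3, Car9, Adm, Kdm3a and Mxi1 were higher, 6 genes, and Vhl, Ndrg1 and Ddit4 were lower, 3 genes. All but Vhl, part of the ligase that removes the factors, are known as targets of the factors.

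Markers of other cells and of growth moved with the genotype. In bulk RNA, fewer cells of a type and less RNA per cell cannot be told apart. All 16 tested of 18 skeletal muscle markers were higher, and their summed level was 299 to 301 CPM in K68R and 89.3 to 91.8 CPM in WT. All but Ttn, which turned to -0.14 with principal transcript offsets, were higher in all 3 fits. Of 9 tested adipocyte markers (10 listed), 7 were lower and 1, Slc2a4, was higher, and they summed to 73.8 to 78.2 CPM in K68R and 243.6 to 257 CPM in WT. Slc2a4 encodes GLUT4, the insulin-responsive transporter of muscle and fat, and was at 3.51 ± 0.485 CPM in K68R, against 1.71 ± 0.332 CPM in WT (SD, n = 3 each). Adipoq, the defining adipocyte hormone, had 0, 1 and 0 counts in K68R and 442, 292 and 308 counts in WT. Of 15 proliferation genes, 14 were lower and Mki67 was higher, with a summed level of 1095 to 1118 CPM in K68R and 2452 to 2466 CPM in WT.

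Macrophage markers summed to 231 to 237 CPM in K68R and 238.3 to 239.6 CPM in WT, with 6 higher and 4 lower of 15 tested of 16. With merged exon offsets 10 were higher and 2 lower, where 33.2% and 42.5% of all genes were. With principal transcript offsets 9 were higher and 2 lower, where 35.9% and 43.3% of all genes were. The 6 endothelial markers, 3 of them higher and none lower, summed to 96.7 to 98.9 CPM in K68R and 25.1 to 27.6 CPM in WT, most of it Kdr, at 90.7 CPM in K68R, against 20.5 CPM in WT. The 8 erythroid markers summed to no more than 0.814 CPM in K68R, against 1.22 CPM in WT, Hbb-y was at 0 in every library, and the 1 tested gene was not called. Of 10 fibroblast markers, 4 were higher and 5 lower, with summed levels of 11050 to 11170 CPM in K68R and 8125 to 8272 CPM in WT. Col1a1 had 2445 CPM in K68R, against 165 CPM in WT, a log2 fold change of 3.89 that was 1.5 and 0.63 with offsets, and Pdgfra 65.3 CPM in K68R, against 363 CPM in WT. The part of these marker genes' cells or states in the glycolytic differences was not tested.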

How the data were processed

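The deposited table holds raw, not normalized, counts of read pairs for each gene, with a column for each library. They were made by featureCounts 2.0.6, per the file headers, on the exons of the RefSeq annotation of mm39 with no strand option, and reads mapped to several places were not counted. The libraries were made from poly(A) RNA with a stranded kit (RNA integrity number above 4, 1.0 µg of total RNA, per the labels' protocols). Opposite-strand overlaps therefore cannot be told apart. HISAT2 2.2.1, bcl2fastq and SAMtools were used upstream, per the submitters' processing notes, and no source used here describes trimming. The same deposited table gives the exonic length of each gene.

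Counts were analysed with edgeR 4.0.16 in R 4.3.3 (filterByExpr, TMM, robust quasi-likelihood F test, Benjamini-Hochberg over 16730 genes, called under 0.05), with no covariate. Offsets came from smooth surfaces fitted per library with mgcv 1.9.3 over log2 length and GC content, the latter from GENCODE M21 transcripts of GRCm38 matched by symbol (36310 direct, 490 by synonym). Beside merged exon length, the GC content used was that of the longest such transcript. Of the genes tested, 93.2% had a GC value and 13339 had an APPRIS principal transcript. The principal transcript alternative was chosen after seeing the data. DESeq2 1.42.0 and limma 3.58.1 (voom) were alternatives. Near-identical copies were found with BLAST 2.17.0 among these transcripts, on the plus strand. Shares were tested by exact permutation over the 20 assignments of 6 libraries (scipy 1.17.1). The test was checked on simulated data.

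The 10 genes and all lists were chosen with earlier results of these data known. Named beside the 10 were the remaining main steps, Sod2 and, per list, up to 3 called genes, those farthest from 0 in fold change whose higher mean reached 5 CPM; other names are said to be chosen after their values were seen, or stand in a full account of a list. No column was left without a sample. The floor of 3 counts allows for counting error alone, because PCR copies were not separated by molecular identifiers. The chi-square per gene between libraries of 1 genotype was 1.85 to 2.24, above sampling noise, and between genotypes 297 to 375, so all 6 libraries were kept as separate.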

Additional observations from a re-analysis of the deposited data

How the results depend on the processing

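Normalization, filters, DESeq2, limma-voom and leaving out a library kept the 5 higher members, while length and GC offsets did not, and the cause was not tested. Genes called numbered 13403 to 13637 without each library in turn, members higher 5 and members lower 2 to 3. With the replicate block 13567 genes were called. Same-numbered libraries correlated at -0.00947, 0.0135 and 0.013, all under 0.1. No pairing by number was seen, but so few libraries cannot exclude one. Against a 1.5-fold bound 6855 genes were called, 2 members higher and 1 lower, and Sod2, at -0.57, was no longer called, fewer genes passing a stricter bound by construction. Members lower numbered 5 with upper quartile normalization, where the median of all genes was -0.12, and 6 with length offsets, where it was -0.21, against -0.01 without. Merged exon or principal transcript offsets each gave 1 member higher and 7 lower. Of all 16730 genes tested, upper quartile normalization called 6147 higher and 7582 lower. Length offsets called 5294 of them higher and 8165 lower, against 6833 and 6780 in the main fit. The Pfkm share difference reversed to 0.493 (raw counts), 0.337 (principal kilobase), 5.51 and 6.65 (surfaces). Among the reversals of sign listed next, Hk1, Pfkm, Hk3 and Pcx were not called with merged exon offsets. Nor were Pgam1 with length offsets and Pgk1, Hk3 and Ttn with principal transcript offsets, and Aldoa was not called in the main fit. Reversed log2 fold changes were Aldoa at -0.097 (upper quartile); with merged exon offsets Hk1 -0.019, Hk2 -0.34, Pfkl -0.44, Pfkm -0.058, Aldoa -0.11, Gapdh 0.081, Pkm -2.35, Tpi1 0.19, Pgam1 0.28, Hk3 -0.14, Slc2a8 -0.44, Pcx -0.0082, Gys1 -0.11 and Egln2 -0.82; with length offsets Hk2 -0.16, Pkm -0.60 and Pgam1 0.031; and with principal transcript offsets Hk2 -0.54, Pfkl -0.56, Pkm -0.60, Tpi1 0.073, Pgk1 0.023, Pgam1 0.19, Hk3 -0.15, Slc2a8 -0.36, Mlxip -0.40, Pcx -0.36, Gys1 -0.30, Egln2 -0.70 and Ttn -0.14.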
